A study of Mus musculus with 16 samples.

Results

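The genes described here are the chemokine receptors Ccr1, Ccr2, Cx3cr1 and Cxcr4, which were taken by gene symbol from the deposited count and FPKM tables and are 4 of the 54532 genes listed there. They were measured by RNA-seq of polyadenylated RNA in 16 libraries of bone-marrow macrophages, in a series on αV integrin and the macrophage in the infarcted heart. The marrow came from tibiae of wild-type C57BL/6 mice aged 2 to 3 months (the growth protocol writes C57BL/6J). All groups shared the same culture, in which marrow cells grew in 15% serum with CSF-1 at 12 ng/ml for 24 h and the cells still floating were replated with CSF-1 at 120 ng/ml for 48 h. The macrophages that attached were passaged once and grown to confluence, either on normal culture dishes (uncoated) or on dishes coated with fibronectin at 10 µg/ml. Each dish then received 10 µg/ml of either an IgG antibody or a neutralizing antibody against ITGAV, the αV integrin subunit, for 24 h. This gave 4 libraries in each of 4 groups: uncoated with IgG, uncoated with anti-ITGAV, fibronectin with IgG, and fibronectin with anti-ITGAV. No group lacked CSF-1 or an antibody. Nothing in the labels says whether the libraries of a group came from separate mice or cultures, so each p-value rests on the variation among these libraries alone, and that variation may be technical.

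Chemokine receptors are G-protein-coupled receptors that turn gradients of secreted chemokines into directed cell movement. CCR2 binds the monocyte chemoattractants CCL2, CCL7 and CCL12 and carries monocytes out of the marrow and into inflamed tissue, the injured heart included, while CCR1 binds CCL3, CCL5, CCL6 and CCL9 and also serves recruitment to inflamed sites. CX3CR1 binds CX3CL1 (fractalkine) and marks patrolling monocytes and many resident macrophages, and CXCR4 binds CXCL12, holds blood-forming cells in the marrow, and takes part in binding the cytokine MIF.

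Of the 4 genes, 3 lie on chromosome 9. On GRCm38, the deposited table places Ccr1 (ENSMUSG00000025804) at chr9:123962124-123968692 on the minus strand and Ccr2 (ENSMUSG00000049103) at chr9:124101950-124113557 on the plus strand, with Ccr1l1 and Ccr3 between them in the same cluster. Cx3cr1 (ENSMUSG00000052336) was placed at chr9:119901616-120069879 on the minus strand. That span of 168.3 kb comes from a long transcript model in GENCODE M21, and the RefSeq gene covers 19.6 kb. Other genes lie inside the long span, but the exons of Cx3cr1 overlapped those of another gene in 78 of 4505 bases, with the antisense gene Gm33858, which had at most 4 counts in a library. Cxcr4 (ENSMUSG00000045382) was placed at chr1:128588199-128592293 on the minus strand. No 100-base window of the exons of Ccr1, Cx3cr1 or Cxcr4 occurred in another gene.

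The start regions of Cxcr4 and Cx3cr1 are shown because these were the receptors that changed with the coating, in opposite directions. Each is given in the sense of the gene, from 250 bases before to 50 bases after the RefSeq start on GRCm38.p6. The window of Cxcr4 is chr1:128592250-128592549, minus strand, and that of Cx3cr1 is chr9:120068247-120068546, minus strand. Capitals mark matches on either strand to the GC box GGGCGG, the NRF1 motif, a self-complementary run of 10 bases, and the TATA box TATAAA.

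Cxcr4: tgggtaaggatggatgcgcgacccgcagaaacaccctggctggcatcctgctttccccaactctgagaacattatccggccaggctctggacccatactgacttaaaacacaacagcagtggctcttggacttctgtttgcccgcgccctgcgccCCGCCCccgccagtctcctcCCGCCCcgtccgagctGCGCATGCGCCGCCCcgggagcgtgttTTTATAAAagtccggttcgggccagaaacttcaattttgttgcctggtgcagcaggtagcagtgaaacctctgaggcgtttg

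Cx3cr1: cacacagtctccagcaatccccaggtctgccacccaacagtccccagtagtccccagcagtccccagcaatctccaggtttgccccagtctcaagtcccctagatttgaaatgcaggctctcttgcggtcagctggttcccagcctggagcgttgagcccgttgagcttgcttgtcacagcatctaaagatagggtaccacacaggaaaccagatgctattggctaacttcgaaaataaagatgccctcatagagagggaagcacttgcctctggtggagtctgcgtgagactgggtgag

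The Cxcr4 window held 20 CpG dinucleotides, more than 73.5% of the 32851 windows of all genes, whose median was 7. It held 3 matches to the GC box, 1 to the NRF1 motif, the end of which overlaps a GC box by a base, and 2 overlapping matches to TATAAA on opposite strands. These motifs occur in 35.7%, 0.971% and 13.6% of all windows, respectively. The Cx3cr1 window held 5 CpG dinucleotides and none of these letters, nor the PU.1 core GAGGAA, the AP-1 motif TGANTCA or the hypoxia core ACGTG, which occur in 28.3%, 7.81% and 19.6% of all windows. Ccr1 and Ccr2 had 1 CpG dinucleotide each in their windows, and of the 6 motifs only GAGGAA occurred there, 1 time in Ccr1. These matches describe the letters in the windows and nothing was measured on them.

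The libraries held between 27995000 and 43413600 counts. All 4 receptors passed the filter on low counts, with between 189 counts (Cx3cr1) and 8750 counts (Ccr2) in a library. The summed level of 15 macrophage markers lay between 32100 and 40400 CPM (counts relative to the TMM-scaled library total) in every library. Lyz2 alone, at a mean of 23400 CPM, made up most of that sum. The median of the means of the 15 markers was 957 CPM, so markers of the labelled cell type were abundant throughout. In replicate 3 of the fibronectin anti-ITGAV group, mitochondrial mRNAs took 3.46% of the counts against 1.24% to 1.53% elsewhere, and its mean correlation with the other libraries over the tested genes was 0.965 against 0.976 to 0.983. In that library the deviation of genes from their mean also followed transcript GC content most, with a rank correlation of -0.7 across genes against -0.3 to 0.55 in the others. Results that depend on that library are given with and without it.

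Per deposited gene length, Ccr2, Cxcr4 and Ccr1 were near one another and Cx3cr1 was far lower. That length merges the exons of all transcript models. For Ccr2 it was 6760 bases, while its single transcripts have between 2265 and 5728. A shorter length would raise the value of Ccr2, so its nearness to Cxcr4 and Ccr1 depends on the length used. Over the 16 libraries the deposited FPKM was 23.3 ± 6.57 (SD) for Ccr2, 19.9 ± 5.32 for Cxcr4, 19.5 ± 3.82 for Ccr1 and 2.22 ± 0.701 for Cx3cr1. Among 12343 protein-coding genes tested these means stood at the percentiles 83.5, 80.6, 80.1 and 31. Cx3cr1 was the lowest of the 4 in all 16 libraries, while the order of the other three varied between libraries and their ranges overlapped. Cxcr4 was the highest of the 4 in 4 of the 8 uncoated libraries and in 1 of the 8 fibronectin libraries. Cx3cr1 at its highest library (3.25 FPKM) stayed far under Cxcr4 at its lowest (11.9). Of 10 chemokine receptor genes with a mean of at least 1 CPM, Cmklr1, the receptor of chemerin, had the highest mean FPKM, 34.7. Cx3cr1 ranked 9 of these 10.

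**Figure D1:**
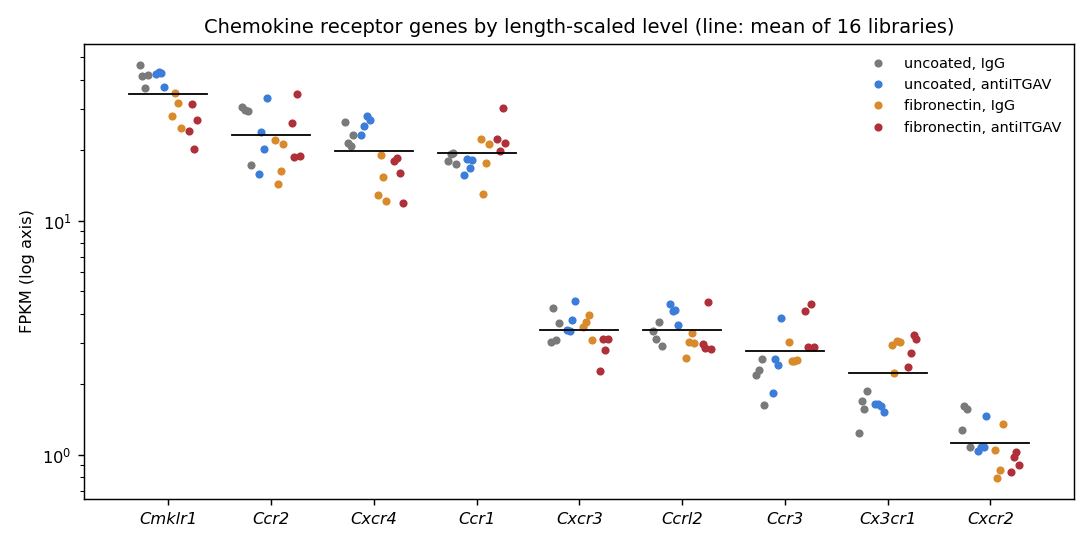
Deposited FPKM on a log axis for 9 of the 10 chemokine receptor genes with a mean of at least 1 CPM, 1 point per library coloured by group, with a line at the mean of the 16 libraries. Ccr2, Cxcr4 and Ccr1 sit together near 20 FPKM in the mean (23.3, 19.9 and 19.5), and Cx3cr1 sits at 2.22 with its fibronectin libraries above its uncoated ones.

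Cx3cr1 mRNA rose on fibronectin. Under IgG its levels were 5.61, 7.70, 7.13 and 8.58 CPM on uncoated dishes and 13.7, 10.2, 14.0 and 14.0 CPM on fibronectin. Under anti-ITGAV they were 7.63, 7.48, 7.40 and 6.91 CPM on uncoated dishes and 10.9, 12.3, 14.7 and 14.3 CPM on fibronectin. Every fibronectin library was above every uncoated library, under both antibodies. The group means were 7.26 ± 1.25 and 13 ± 1.84 CPM under IgG and 7.35 ± 0.311 and 13 ± 1.75 CPM under anti-ITGAV (SD, n = 4).

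The log2 change of Cx3cr1 in edgeR's quasi-likelihood test, which compared the 2 coatings over all 15469 genes tested, was 0.84 ± 0.15 (SE) under IgG with an adjusted p of 0.00324. Under anti-ITGAV it was 0.83 ± 0.15 with an adjusted p of 0.0034. Averaged over the antibodies it was 0.83 ± 0.10, a 1.78-fold level (adjusted p = 5.42e-05), with a 95% interval of 0.61 to 1.06, and the gene ranked 88 of 15469 by p. The change passed the threshold of 0.05 in each of the 16 fits that left out a library. In whole-culture RNA, more cells with the transcript and more transcript per cell cannot be told apart, and the same holds for each fall below.

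Cxcr4 mRNA fell on fibronectin. Under IgG its levels were 48.0, 39.2, 38.1 and 42.6 CPM on uncoated dishes and 23.8, 34.9, 28.2 and 22.4 CPM on fibronectin. Under anti-ITGAV they were 43.2, 46.1, 51.4 and 49.2 CPM on uncoated dishes and 33.5, 33.9, 29.1 and 21.8 CPM on fibronectin. All fibronectin libraries were below all uncoated libraries, with the smallest gap between 34.9 and 38.1 CPM. The group means were 42 ± 4.44 and 27.3 ± 5.62 CPM under IgG and 47.4 ± 3.58 and 29.6 ± 5.62 CPM under anti-ITGAV (SD, n = 4).

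The log2 change of Cxcr4 was -0.62 ± 0.15 under IgG (edgeR adjusted p = 0.0271) and -0.68 ± 0.15 under anti-ITGAV (adjusted p = 0.0124). Averaged over the antibodies it was -0.65 ± 0.10, or 0.637 times the uncoated level (adjusted p = 0.000541), with a 95% interval of -0.88 to -0.42. The averaged change passed in each of the 16 fits that left out a library. Under IgG alone it did not pass when replicate 1, 2 or 4 of the uncoated IgG group or replicate 1, 3 or 4 of the fibronectin IgG group was left out, where the adjusted p was 0.118, 0.0576, 0.053, 0.0825, 0.0718 and 0.0939 in that order.

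Cx3cr1 and Cxcr4 were thus 2 of the 4 receptors called in each of the comparisons of coatings, 1 in each direction. Of all genes tested, 3.79% were called under IgG, 5.66% under anti-ITGAV and 11.8% in the average over antibodies. By direction, 2.37% of genes were higher and 1.42% lower under IgG, 2.84% and 2.83% under anti-ITGAV, and 6.58% and 5.26% in the average. In the average, 2.01% of genes were higher in all 8 fibronectin libraries than in all 8 uncoated ones, as Cx3cr1 was, and 1.81% were lower in all of them, as Cxcr4 was. Under IgG alone 7.89% of genes were higher in every fibronectin library and 5.26% lower, and under anti-ITGAV 6.55% and 7.53%. With 4 genes, these counts describe the genes and say nothing of receptors as a class.

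**Figure D2:**
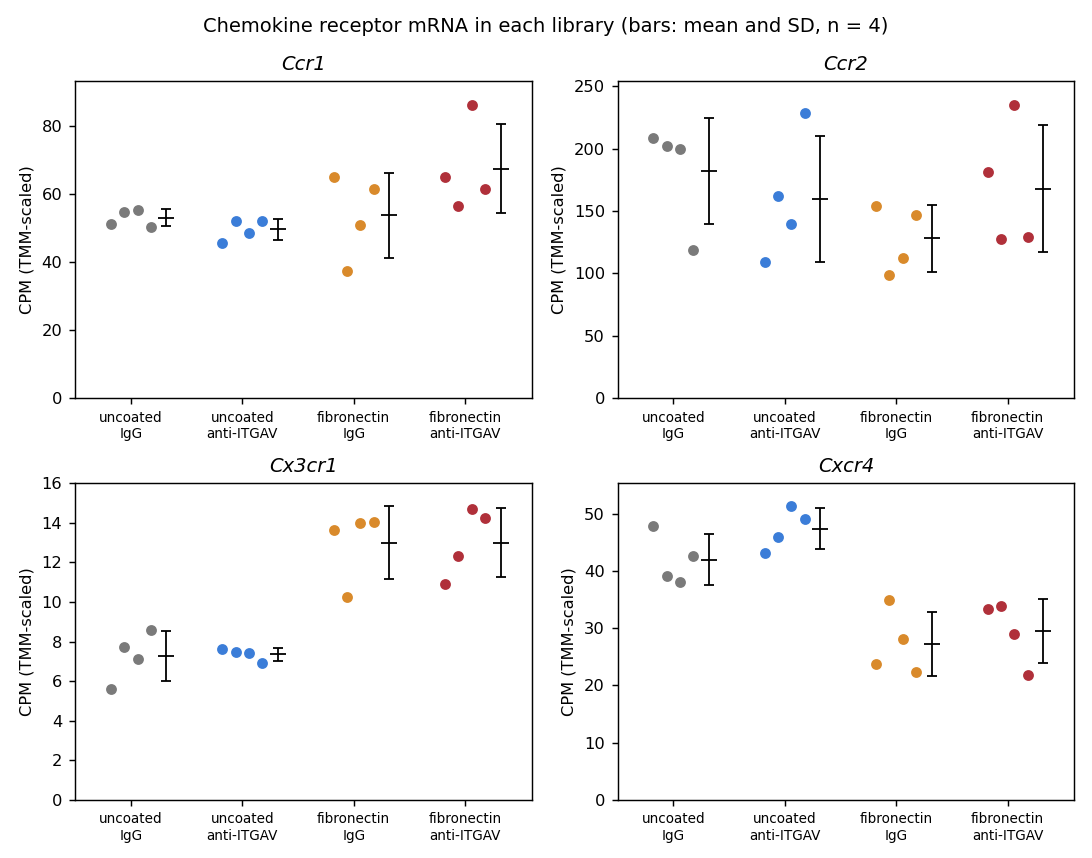
TMM-scaled CPM of Ccr1, Ccr2, Cx3cr1 and Cxcr4, 1 point per library in each of the 4 groups, with the mean and SD of the 4 libraries beside the points. Cx3cr1 is at 10.2 CPM or more in every fibronectin library and at 8.58 CPM or less in every uncoated one, Cxcr4 is at 34.9 CPM or less against 38.1 CPM or more, and the groups of Ccr2 overlap.

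The ratio of Cxcr4 to Cx3cr1 in a library, was taken from the FPKM, so that depth and scaling cancel. It was 14.9 ± 4.27 on uncoated dishes with IgG and 16.1 ± 1.70 with anti-ITGAV, and 5.46 ± 2.07 on fibronectin with IgG and 5.81 ± 1.75 with anti-ITGAV (SD, n = 4). The uncoated libraries lay between 12.4 and 21.3 and the fibronectin libraries between 3.81 and 8.50, with no overlap. That gap had to follow, because each of the 2 genes separated by coating, in opposite directions. The ratio thus describes their changes and adds no evidence for them. For deviations from the group means, over the 16 libraries, the correlation of log2 CPM of these genes was -0.684, as a description. Within each coating it was tested, and it did not pass after adjustment. Over the 8 fibronectin libraries the correlation of log2 CPM of the 2 genes was -0.76 (rho = -0.71), with exact permutation p of 0.0355 and 0.0576, which became 0.071 and 0.115 after adjustment over the 2 coatings. It was -0.55 without the 2 libraries farthest from the median of Cx3cr1. Over the 8 uncoated libraries it was -0.37 (rho = -0.48), with exact permutation p of 0.387 and 0.243.

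Markers of other marrow cells also differed between the coatings, and their part in the changes of Cx3cr1 and Cxcr4 was not tested. The genes named in what follows were chosen after their values were seen, and calls are edgeR's in the average over antibodies. Of all genes tested, 6.58% were higher and 5.26% lower in that average. The 8 B-cell markers summed to 61 to 80.1 CPM in the uncoated libraries and 29.9 to 45.2 CPM on fibronectin. Of their 6 tested genes, 3 were lower, Ighm, Cd79a and Cd79b, and Ighm made up most of the sum, with Ms4a1 and Pax5 under 1 CPM in every group mean. B-lineage cells are known to carry CXCR4.

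The 15 neutrophil markers summed to 414 to 558 CPM on uncoated dishes and 275 to 490 CPM on fibronectin, and 9 of 15 were lower and none higher, Csf3r and Elane among them. Eosinophil, basophil and mast cell markers summed to 25.2 to 39.6 CPM against 12 to 23.3 CPM, with 5 of 10 tested genes lower (Prg2, Mcpt8, Prss34, Gata2 and Hdc) and 1 higher (Siglecf). Fibroblast markers summed to 10.7 to 15.2 CPM against 5.17 to 8.98 CPM, with 3 of 4 tested genes lower (Col1a1, Col1a2 and Col3a1) and Lum at 0 counts throughout. These sums are small beside those of the macrophage markers, but for B-lineage, granulocyte and fibroblast lists they moved in the direction of Cxcr4 between coatings. The neutrophil sum also differed between antibodies. Its means were 540 (uncoated) and 448 CPM (fibronectin) under IgG, and 433 and 329 CPM under anti-ITGAV. Under IgG 1 of the 15 was lower on fibronectin (1.42% of all genes), and under anti-ITGAV 8 were (2.83%). Averaged over coatings, 4 were lower with anti-ITGAV (0.0323% of all genes), where Cxcr4 was not called.

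The monocyte list had 2 of 7 tested genes lower, Plac8 and Hp, with a median log2 change of -0.24 against 0 over all genes. Of the 15 macrophage markers, 2 were lower, Mertk and Adgre1, and none was higher. The T and NK cell markers summed to at most 0.768 CPM, with Trbc2 at 0 counts, and the 1 tested gene was not called. None of 7 dendritic cell markers and none of 12 mitochondrial mRNAs was called by edgeR or by DESeq2, and 1 and 0 of them had an unadjusted p under 0.05 in edgeR.

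Ccr1 did not pass the test between coatings under either antibody, and its estimate was near 0 under IgG. Under IgG its levels were 51.3, 54.8, 55.4 and 50.3 CPM on uncoated dishes and 65.1, 37.4, 50.8 and 61.5 CPM on fibronectin. Under anti-ITGAV they were 45.7, 52.2, 48.5 and 52.0 CPM on uncoated dishes and 65.2, 56.6, 86.3 and 61.6 CPM on fibronectin. The spread was much wider on fibronectin, with SDs of 12.5 and 13.1 CPM against 2.51 and 3.11 CPM on uncoated dishes. Under anti-ITGAV every fibronectin library was above every uncoated one, as was so for 6.55% of all genes.

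The log2 change of Ccr1 was 0.02 ± 0.15 under IgG (edgeR adjusted p = 0.98, 95% interval -0.31 to 0.35). Under anti-ITGAV it was 0.44 ± 0.15 (adjusted p = 0.096, 95% interval 0.12 to 0.77), and 0.30 (adjusted p = 0.229) without replicate 3 of the fibronectin anti-ITGAV group, its highest library. DESeq2 gave 0.45 with an adjusted p of 0.0474, and the edgeR fit without replicate 2 of the fibronectin IgG group gave 0.44 with an adjusted p of 0.0351. In the average over antibodies the change was 0.23 ± 0.11 (adjusted p = 0.191), or 0.30 (adjusted p = 0.0322) without that replicate 2.

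Ccr2 did not pass the test between coatings under either antibody, and its libraries varied widely within every group. Under IgG its levels were 209, 202, 200 and 118 CPM on uncoated dishes and 154, 98.5, 112 and 147 CPM on fibronectin. Under anti-ITGAV they were 109, 162, 140 and 228 CPM on uncoated dishes and 181, 128, 235 and 129 CPM on fibronectin. The groups overlapped in both comparisons, and the SD was between 20.9% and 31.6% of the mean in each group. The log2 change on fibronectin was -0.51 ± 0.24 under IgG (edgeR adjusted p = 0.326) and 0.08 ± 0.24 under anti-ITGAV (adjusted p = 0.879), or -0.13 without replicate 3 of the fibronectin anti-ITGAV group. The average was -0.22 ± 0.17 (adjusted p = 0.484), with a 95% interval of -0.59 to 0.15.

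The spread of Ccr2 moved with a property of the library. The Ccr2 transcript has 39.4% GC, at percentile 5.81 of the tested genes, and Ccr1 has 39.1%, while Cxcr4 has 46.1% and Cx3cr1 50.3%, against a median of 49.2%. For each library the GC trend was taken as the rank correlation, across tested genes, of the deviation from the gene's mean with transcript GC content. Over the 16 libraries the log2 CPM of Ccr2 fell as this trend rose, with r = -0.86 and rho = -0.82 (permutation p = 2e-05 and 0.0002, or 4e-05 and 0.00068 adjusted over the 4 receptors). Without the 2 libraries farthest from the median trend r was -0.80, and for deviations from the group means it was -0.95. Ccr1 gave r = -0.81 and rho = -0.79 (permutation p = 2e-05 and 0.00034), and r = -0.67 without those 2 libraries. For Cx3cr1 r was -0.16 and for Cxcr4 0.30, with permutation p of 0.544 and 0.259. The trend is itself built from how genes deviate by GC content, so a gene low in GC is expected to fall as it rises. The small p-values therefore do not set Ccr2 and Ccr1 apart from other genes low in GC. The share of such genes with a like r was not counted.

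**Figure D3:**
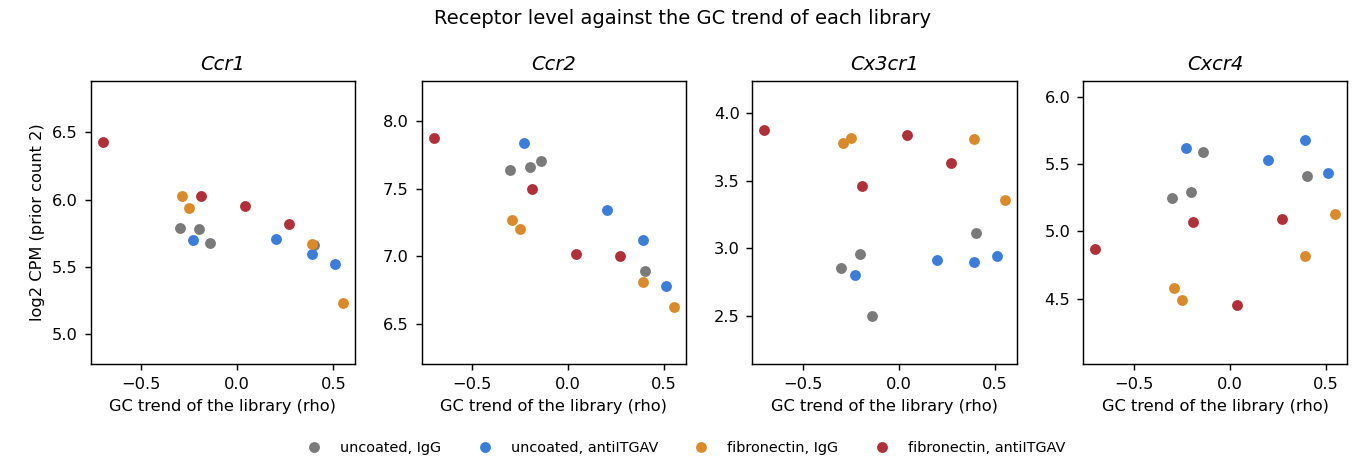
Log2 CPM of each receptor (vertical axis, the same height of 2.1 log2 units in each panel) against the GC trend of the library (horizontal axis, Spearman's rho across genes), 1 point per library coloured by group. Ccr1 and Ccr2 decline from left to right in all groups together, with r of -0.81 and -0.86, whereas Cx3cr1 and Cxcr4 separate by coating.

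The GC trend of each library was also fitted as a smooth curve of the deviations on transcript GC content. The curve comes from the same values, so the spread of a gene low in GC, and its SE in edgeR, are expected to fall once it is removed. With the curve subtracted from log2 CPM, the SD of Ccr2 within groups fell from 0.40 to 0.14, and that of Ccr1 from 0.23 to 0.16. The SD of Cx3cr1 was 0.20 in both cases, and that of Cxcr4 went from 0.23 to 0.27. Adjusted in this way, Ccr2 stood at 170 ± 19.8 CPM on uncoated dishes and 131 ± 2.93 CPM on fibronectin under IgG, and at 176 ± 19.8 and 146 ± 13.1 CPM under anti-ITGAV (SD, n = 4). Adjusted in the same way, Ccr1 under anti-ITGAV stood at 56.8 ± 8.05 CPM on uncoated dishes and 59.2 ± 3.70 CPM on fibronectin, and the libraries of the coatings overlapped. For the tests the curve was entered as an offset. The log2 change of Ccr1 under anti-ITGAV was then 0.06 (edgeR adjusted p = 0.764), against 0.44 without the offset. With the offset the fall of Ccr2 passed edgeR's test under IgG, with a log2 change of -0.38 ± 0.09 (adjusted p = 0.00691), and in the average, with -0.33 ± 0.06 (adjusted p = 0.00068). Under anti-ITGAV the value was -0.27 ± 0.09 (adjusted p = 0.0514). More genes passed with this offset, 1711 against 586 under IgG and 3391 against 1831 in the average. The Ccr2 result, and the size of the Ccr1 estimate under anti-ITGAV, therefore depend on whether the GC trend is taken out, and what made the libraries differ in it was not tested.

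Ccr1 lies in the same gene cluster as Ccr2 and has nearly the same GC content. The FPKM ratio of Ccr2 to Ccr1 was 1.44 ± 0.314 and 1.34 ± 0.359 on uncoated dishes (IgG and anti-ITGAV) and 1 ± 0.0719 and 1.03 ± 0.139 on fibronectin. The uncoated libraries spanned 0.987 to 1.84 and the fibronectin libraries 0.880 to 1.16, so the ranges overlapped. This ratio was described after its values were seen and was not tested.

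Between anti-ITGAV and IgG none of the 4 receptors was called on either coating or in the average. By edgeR, 1 receptor had an unadjusted p under 0.05 on fibronectin, Ccr1, and none had one on uncoated dishes, and DESeq2 called none. On fibronectin the log2 change of Ccr1 with anti-ITGAV was 0.33 ± 0.15 (adjusted p = 0.721), and 0.19 without replicate 3 of the fibronectin anti-ITGAV group. For Ccr2 it was 0.40 ± 0.24 (edgeR adjusted p = 0.721), and 0.19 without that library. On uncoated dishes the estimates were -0.09 ± 0.15 for Ccr1, -0.19 ± 0.24 for Ccr2, 0.02 ± 0.15 for Cx3cr1 and 0.18 ± 0.15 for Cxcr4. Few genes of any kind were called for the antibody, 0.0129% on uncoated dishes, 0.0129% on fibronectin and 0.0711% in the average over coatings (0.0388% higher and 0.0323% lower), so the lack of a call does not set the receptors apart. The ranges of the antibody groups overlapped for all 4 receptors. Of all genes, 2.24% were higher and 0.912% lower in every anti-ITGAV library on uncoated dishes, 1.05% and 1.37% on fibronectin, and 0.0259% and 0.00646% over both coatings.

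The antibody estimates for Cx3cr1 and Cxcr4 had narrower intervals than those for Ccr2. Averaged over coatings, Cx3cr1 differed by 0.01 ± 0.10 between anti-ITGAV and IgG (edgeR adjusted p = 1), with a 95% interval of -0.21 to 0.24. Cxcr4 differed by 0.15 ± 0.10 (adjusted p = 1), with an interval of -0.08 to 0.37. For Ccr2 the interval was -0.27 to 0.47.

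Whether the antibody altered the effect of fibronectin was asked of the interaction term. It was 0.42 ± 0.21 for Ccr1 and 0.59 ± 0.34 for Ccr2 (edgeR adjusted p = 0.646 for both), -0.01 ± 0.20 for Cx3cr1 (adjusted p = 0.988) and -0.06 ± 0.21 for Cxcr4 (adjusted p = 0.902). Without replicate 3 of the fibronectin anti-ITGAV group the term was 0.28 for Ccr1 and 0.38 for Ccr2, and with the GC offset it was -0.05 and 0.11. No receptor was called, and 0% of all genes were, although edgeR's p before adjustment was under 0.05 for 614 genes. By DESeq2 1 gene passed. The 95% intervals were wide, -0.46 to 0.44 for Cx3cr1 and -0.16 to 1.33 for Ccr2.

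**Figure D4:**
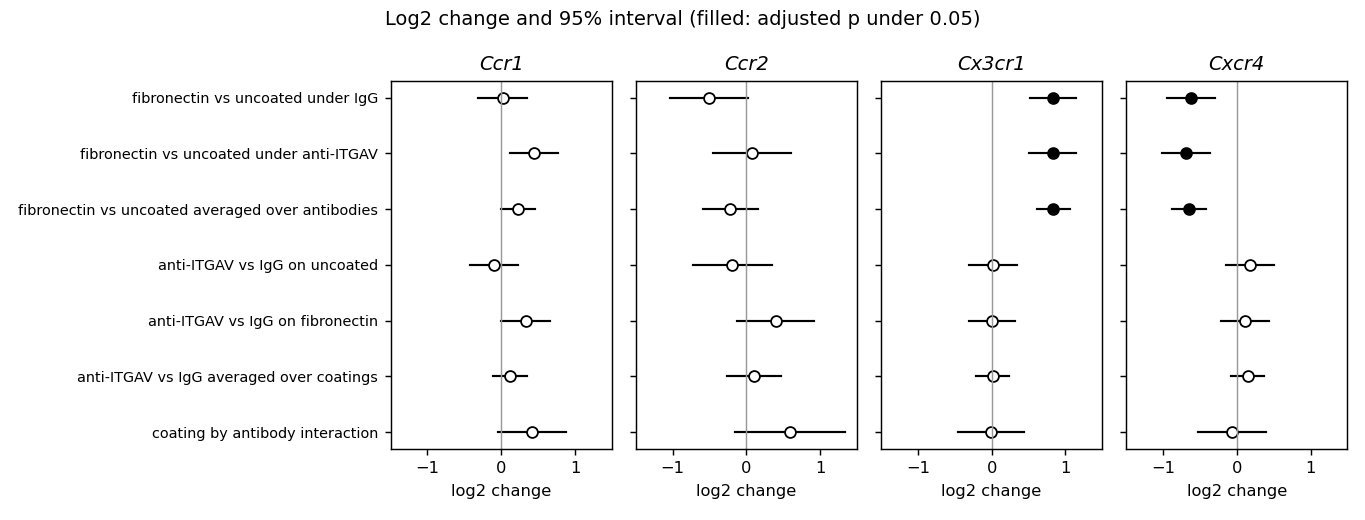
Log2 change (point) and 95% interval (line) of each receptor in the 7 comparisons, with filled points where edgeR's adjusted p was under 0.05. Filled points appear in the 3 comparisons of coatings for Cx3cr1, to the right of 0 at about 0.83, and for Cxcr4, to the left of 0 between -0.68 and -0.62.

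The ligands of these receptors were read in the same libraries, and those of CCR2 rose most on fibronectin. Ccl2, the main CCR2 ligand in mice, went from 41.6 ± 2.97 to 141 ± 39.7 CPM under IgG and from 36.5 ± 3.66 to 155 ± 25.6 CPM under anti-ITGAV (SD, n = 4). Its log2 change averaged over antibodies was 1.93 ± 0.12 (edgeR adjusted p = 7.59e-08). The other CCR2 ligands Ccl7 (2.00 ± 0.14, adjusted p = 2.34e-07) and Ccl12 (1.51 ± 0.18, adjusted p = 4.69e-05) rose with it, and the ranges of the coatings did not overlap for any of these 3 genes. In the same libraries the average change of the receptor gene Ccr2 was -0.22 ± 0.17.

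Among the CCR1 ligands the rises were small. Ccl3 went from 21.8 ± 1.47 to 27.6 ± 2.88 CPM under IgG and from 24.3 ± 1.78 to 33.4 ± 5.22 CPM under anti-ITGAV, with an average log2 change of 0.40 ± 0.08 (edgeR adjusted p = 0.00303). Ccl6 and Ccl9, which are abundant in myeloid cells and stood at means of 1260 and 1100 CPM over the libraries, had average changes of 0.32 ± 0.10 (adjusted p = 0.0338) and 0.36 ± 0.10 (adjusted p = 0.0221). Those 2 calls were fragile. Ccl6 passed in 8 of the 16 fits that left out a library and did not pass without replicate 1, 2 or 3 of the uncoated IgG group, 2 or 4 of the uncoated anti-ITGAV group, or 1, 2 or 3 of the fibronectin IgG group (adjusted p up to 0.0855). Ccl9 did not pass without replicate 1, 2 or 3 of the uncoated IgG group (adjusted p up to 0.0599), and with the GC offset neither passed (adjusted p of 0.0689 and 0.15). Ccl5, at a mean of 1.62 CPM, had a change of 0.19 ± 0.17 (adjusted p = 0.542), and Ccl8, a ligand of several receptors including CCR2, had -0.02 ± 0.24 (adjusted p = 0.973).

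Of the ligands of the receptors that changed, Cx3cl1 and Cxcl12 were scarce in these cultures and Mif was not. Cx3cl1, made mainly by endothelial and epithelial cells and neurons, stood at a mean of 0.474 CPM, and Cxcl12, made by stromal cells, at 0.544 CPM. Their log2 changes were -0.28 ± 0.28 (edgeR adjusted p = 0.604) and -0.06 ± 0.30 (adjusted p = 0.935). Mif stood at 129 CPM with a change of 0.15 ± 0.10 (adjusted p = 0.401), and at 0.23 (adjusted p = 0.016) without replicate 3 of the fibronectin anti-ITGAV group. It also passed with the GC offset, at 0.32 (edgeR adjusted p = 0.00522), and with voom, at 0.19 (adjusted p = 0.00604). In all, 6 of the 11 ligands were higher on fibronectin in the average and none was lower, with a median log2 change of 0.32 against 0 over all genes, and DESeq2 gave the same counts. By edgeR, 6.58% of all genes tested were higher and 5.26% lower in that average. The antibody called none of the 11 on either coating, and 0 and 1 of them had an unadjusted p under 0.05 on uncoated dishes and on fibronectin in edgeR, with none called by DESeq2.

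**Figure D5:**
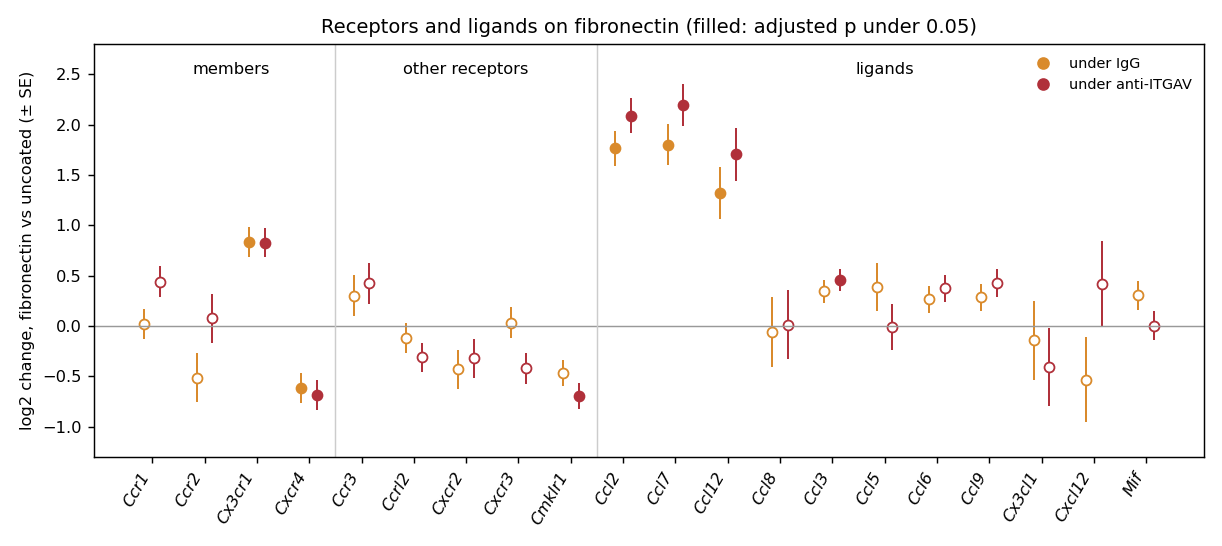
Log2 change between fibronectin and uncoated dishes (± SE) under IgG and under anti-ITGAV, for the 4 receptors, 5 other receptors with a mean of at least 1 CPM and 11 ligands, with filled points where the adjusted p was under 0.05. Ccl2, Ccl7 and Ccl12 stand between 1.32 and 2.20 under both antibodies, and Cx3cr1 and Cxcr4 are filled on opposite sides of 0.

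Of 21 other chemokine receptor genes, 12 passed the filter on low counts. Of these, 1 was called in the average, Cmklr1, which was lower, as were 5.26% of all genes tested. It went from 144 ± 13.5 to 104 ± 15 CPM under IgG and from 143 ± 10.2 to 88.6 ± 16.5 CPM under anti-ITGAV, with an average log2 change of -0.58 ± 0.09 (edgeR adjusted p = 0.000438). Like Cxcr4, it was lower in all 8 fibronectin libraries. Under IgG alone its change of -0.47 ± 0.13 did not pass (adjusted p = 0.0542), and under anti-ITGAV its change of -0.69 ± 0.13 did (adjusted p = 0.00491).

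Ccr3, an eosinophil receptor next to Ccr2 in the cluster, had an average log2 change of 0.36 ± 0.14 (edgeR adjusted p = 0.126), and the neutrophil receptor Cxcr2 had -0.37 ± 0.14 (adjusted p = 0.0905). The decoy-like receptor Ccrl2 had -0.22 ± 0.10 (adjusted p = 0.223) and Cxcr3, best known from T cells, had -0.19 ± 0.11 (adjusted p = 0.299). Each of Ccr3, Cxcr2 and Ccrl2 passed in 1 of the 16 fits that left out a library, without replicate 4 of the uncoated anti-ITGAV group, replicate 4 of the fibronectin IgG group and replicate 3 of the fibronectin anti-ITGAV group, with adjusted p of 0.0248, 0.0314 and 0.0153. With voom and quality weights all 3 passed (adjusted p of 0.038, 0.0445 and 0.002), and with the GC offset Ccr3 and Cxcr2 did (adjusted p of 0.0434 and 0.0156 in edgeR). The median log2 change of the 12 was -0.15 against 0 over all genes. Ccr8 and Ackr1 had 0 counts in all 16 libraries, which allows up to 0.107 CPM in the shallowest library, by counting error alone.

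Of 30 tested genes that act behind these receptors, 4 were higher and 2 lower on fibronectin in the average over antibodies, and the median log2 change was -0.01 against 0 over all genes. Of all genes tested, 6.58% were higher and 5.26% lower in that average, and the counts of this list were not tested against those shares. Ptk2b, which encodes the kinase PYK2 that chemokine receptors and integrins activate, rose by 0.36 ± 0.06 (edgeR adjusted p = 0.000371). Rgs1, an inhibitor of G-protein signalling that limits migration towards chemokines, rose by 1.09 ± 0.18 (adjusted p = 0.000572), from 9.37 ± 1.84 to 17.1 ± 5.32 CPM under IgG and from 13.1 ± 2.88 to 32.5 ± 11.4 CPM under anti-ITGAV. Rgs10, of the same family, fell by 0.31 ± 0.06 on the log2 scale (adjusted p = 0.00265), and Elmo1, part of a Rac activator in migrating cells, rose by 0.25 ± 0.05 (adjusted p = 0.00369). Nup85, a nucleoporin also described as a partner of CCR2, was higher and the G-protein subunit gene Gng2 lower, and both are named because their count was small. The G-protein subunit gene Gnai2, through which these receptors mainly signal, had -0.02 ± 0.08 (adjusted p = 0.911).

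The genes most like each receptor over the 16 libraries were found among 8427 protein-coding genes with a mean of at least 10 CPM, by the Pearson correlation of log2 CPM, as a description. For Cx3cr1 they were Xpot (r = 0.969), Ccl2 (r = 0.96) and Plau (r = 0.958), and for deviations from the group means these fell to 0.831, 0.758 and 0.686. Xpot encodes the tRNA exporter exportin-T and Plau the urokinase-type plasminogen activator, and both were higher on fibronectin, by 0.35 and 1.38 (edgeR adjusted p = 0.000202 and 6.79e-07). For Cxcr4 they were Hsd17b11 (r = 0.951), Osbpl11 (r = 0.95) and Apobec3 (r = 0.947), and 0.813, 0.801 and 0.793 for the deviations. Each of those 3 was lower on fibronectin, by -0.25, -0.29 and -0.27. All these genes were chosen by likeness, in the same libraries, to a receptor whose libraries separated by coating. A difference between coatings therefore follows largely from the choice, and their changes and p-values add no evidence. Cx3cr1 and Cxcr4 themselves were near opposite ends, since Cxcr4 ranked 8406 of the 8427 in likeness to Cx3cr1.

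For Ccr2 the most alike genes were Kctd12b (r = 0.983), St8sia4 (r = 0.978) and Stxbp3 (r = 0.971), and for Ccr1 Hnrnpa2b1 (r = 0.964), Nus1 (r = 0.963) and Riok3 (r = 0.959). Within groups these correlations held, at 0.989, 0.986 and 0.97 for the first set and 0.955, 0.949 and 0.939 for the second. None of these 6 genes was called for the coating. Their transcripts were low in GC, between 36.1% and 43.6%. The 100 genes most like Ccr2 had a median GC content of 40.5% and those most like Ccr1 one of 42.4%, against 49.2% for all 8427 genes, while for Cx3cr1 and Cxcr4 the medians were 48.3% and 50.4%. All these points share the same 16 libraries and their GC trends.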

How the data were processed

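RNA-seq libraries of 16 macrophage cultures were analysed from gene counts and FPKM, both as deposited by the authors. Of tools, the submitters' processing notes list featureCounts, HISAT2 and StringTie, and of builds GRCm38.p6 and mm10. Which tool did what, the strand setting and how multi-mapped reads were counted were not stated in these sources. The deposited count of each gene is a whole number, and the deposited FPKM equals that count per kilobase of the deposited gene length and scaled to a total of 0.989 to 1.04 times the library's counts.

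Counts were tested with edgeR 4.0.16 (R 4.3.3) by quasi-likelihood with TMM scaling, filterByExpr (minimum count 10) and Benjamini-Hochberg adjustment over the 15469 genes that passed, which held 99.9% of counts, at a threshold of 0.05. All 16 libraries entered 1 fit with 4 group means. CPM values are on TMM-scaled totals, and SE is the log2 change divided by the root of F. Intervals use 12 residual degrees of freedom. Genes in the text were the 4 receptors, their 11 ligands, other receptors with a mean of at least 1 CPM, up to 4 called signalling genes with the smallest adjusted p, and the 3 genes most like each receptor. Lists covered ligands, other receptors, signalling, mitochondrial mRNAs and markers of macrophages, monocytes, neutrophils, eosinophils with basophils and mast cells, T and NK cells, B cells, dendritic cells and fibroblasts. The receptors and lists were chosen with earlier results of these data known. Results for some genes of the lists are not reported here. The GC offset was a lowess trend (span 0.3) of log2 CPM on transcript GC content in each library. Alternatives used DESeq2 1.42.0, limma 3.58.1 on log2(FPKM + 1) and log2(FPKM + 0.1), voom with quality weights, other scalings and filters, the replicate number as a block, and each library left out. The scripts were tested on simulated data. Depth was 27995000 to 43413600 counts, where 3 counts equal 0.0691 to 0.107 CPM. Figures were drawn with matplotlib 3.10.9.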

Additional observations from a re-analysis of the deposited data

Results flagged for a closer look

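In 2 of the 16 groups of 4 libraries examined (4 receptors in 4 groups), 1 library stood far from the other 3 by Dixon's criterion, which chance alone meets in about 1 in 20 groups. Ccr2 was at 119 CPM in replicate 4 of the uncoated IgG group, against 200 to 209 CPM in the others, so the gap to its nearest neighbour was 0.901 of the group's range. The GC trend of that library was 0.4, against -0.3 to -0.14 in the others of its group. With the GC curve subtracted, Ccr2 stood at 142 CPM there, against 173 to 188 CPM, and the part of the GC trend was not tested. Cx3cr1 was at 10.2 CPM in replicate 2 of the fibronectin IgG group, against 13.6 to 14 CPM in the others, with a gap of 0.9 of the range.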

How the results depend on the processing

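The rise of Cx3cr1 in all 3 comparisons of coatings and the fall of Cxcr4 in the average passed in every alternative and without each library. The fall of Cxcr4 under IgG was -0.61 with limma on unfiltered FPKM (adjusted p = 0.0707), and under anti-ITGAV -0.69 when only the groups compared were fitted (adjusted p = 0.05). Under anti-ITGAV Ccr1 was 0.45 with DESeq2 and 0.29 with voom, and 0.22 with voom in the average, all called, but 0.06 under anti-ITGAV with the GC offset (adjusted p = 0.764). Ccr2 with the GC offset was -0.38 under IgG and -0.33 in the average, both called, and -0.27 under anti-ITGAV, where voom gave -0.1. The number of genes called under IgG (586) was 984 with DESeq2, 309 with unfiltered limma, 2481 with voom and 1711 with the GC offset, and under anti-ITGAV (876) 1500, 510, 2173 and 1943, with 251 when only those groups were fitted. In the average (1831) voom gave 4128 and the GC offset 3391. For the antibody on uncoated dishes (2 genes) DESeq2 gave 17, unfiltered limma 1, voom 109 and the GC offset 7, and on fibronectin (2 genes) 16, 4, 6 and 10, with 4 without a filter and 0 with only those groups. In the average (11 genes) DESeq2 gave 44, voom 108 and the GC offset 50, and for the interaction (0 genes) DESeq2 gave 1. With the replicate block 360 genes were called under IgG and 0 for the antibody on uncoated dishes, and no receptor changed its call. A pairing of samples by number was not seen, but the check cannot exclude one, because each library's GC trend also enters it. It correlated deviations from the group means. Libraries of the same number correlated by -0.127 on average (-0.872 to 0.801, 24 pairs), against 0.0328 for libraries of different numbers. Of 16 libraries, 0 correlated best with its own number in all 3 other groups, and matches in fewer groups were not counted.

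Signs turned for several estimates, none of them called. Most were near 0, but the Ccr1 interaction (0.42) and Ccr2 for the antibody on fibronectin (0.40) were not. Ccr1 under IgG was -0.02 in the 3 limma fits. For the antibody on uncoated dishes the GC offset gave 0.16 for Ccr1, 0.04 for Ccr2 and -0.03 for Cx3cr1. On fibronectin voom gave 0 for Ccr2 and -0.11 for Cx3cr1, which was 0 without a filter. In the average voom gave -0.04 for Ccr1, -0.18 for Ccr2 and -0.03 for Cx3cr1. The Cx3cr1 interaction was 0.01 with DESeq2 and RLE factors, 0 with library totals and limma, and 0.06 with the GC offset, which gave -0.05 for Ccr1. Leaving out 1 library at a time, the number of genes called ran from 253 (without uncoated IgG replicate 1) to 1325 (without fibronectin anti-ITGAV replicate 3) under IgG, 428 (without uncoated anti-ITGAV replicate 2) to 1037 under anti-ITGAV, and for the antibody 0 to 2 on uncoated dishes, 1 to 5 on fibronectin and 4 to 22 in the average, where 5 and 22 were without fibronectin anti-ITGAV replicate 3. Between coatings, Cxcr4 under IgG ran from -0.76 to -0.55, Ccr1 from -0.11 to 0.16 under IgG, 0.3 to 0.51 under anti-ITGAV and 0.16 to 0.3 in the average, and Ccr2 under anti-ITGAV from -0.13 to 0.3. Ccl8 ran from -0.24 to 0.07 and Cxcl12 from -0.23 to 0.05. For the antibody, Cx3cr1 ran from -0.09 to 0.11 on uncoated dishes, -0.09 to 0.1 on fibronectin and -0.04 to 0.06 in the average, and Ccr2 in the average from -0.01 to 0.17. The interaction ran from -0.11 to 0.09 for Cx3cr1 and -0.14 to 0.08 for Cxcr4. The cause of these differences was not tested.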
